A study of Mus musculus with 20 samples.

Results

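The 47 genes described here encode subunits and cofactors of RNA polymerase I (Pol I) and the nucleolar proteins that cut, modify and assemble ribosomal RNA. They were taken by symbol from a list of classic Myc target genes. All 47 were found in both count tables, among 13107 genes in the Myc experiment and 11210 genes in the HU experiment, and all 47 passed the filter on low counts. By role, 7 belong to Pol I and its cofactors, 4 to the box C/D and 4 to the box H/ACA small nucleolar ribonucleoproteins (snoRNPs), 13 to small subunit processing and 14 to large subunit assembly, and 5 are abundant nucleolar proteins.

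The cells were p19/Nras, a hepatocellular carcinoma (HCC) line from a mouse liver tumour that was driven by Nras in a p19Arf-null animal, so that every group carries both lesions. In the Myc experiment, cells with a control guide RNA (sgCtrl, called WT) or a guide RNA against Trim33 (sgTrim33, lines KO1 and KO2) received the empty pWZL vector (Ctrl) or a Myc vector, which gives the groups WT Ctrl, KO1 Ctrl, KO2 Ctrl, WT Myc, KO1 Myc and KO2 Myc. In the HU experiment, sgCtrl (WT) and sgTrim33 (KO) cells received vehicle (untreated) or 1 mM hydroxyurea (HU), which stalls DNA replication, for 4 hours. Every group had 2 libraries, and the labels say neither whether these came from separate cultures nor which knockout line the HU experiment used, so that the p-values measure the spread between these libraries, which may be technical.

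The 12 libraries of the Myc experiment held 14753177 to 17949430 counts and the 8 libraries of the HU experiment 2315327 to 3082202 counts. Trim33 mRNA, the target of the knockout, was 246 and 258 CPM (counts scaled to a common library size) in WT Ctrl, 123 and 130.4 CPM in KO1 Ctrl and 201 and 207 CPM in KO2 Ctrl. With the Myc vector it went against the labels of WT and KO1, at 131 and 155 CPM in the libraries labelled WT Myc, 185 and 193 CPM in those labelled KO1 Myc and 124 and 125 CPM in those labelled KO2 Myc, so that WT Myc lay below KO1 Myc and above KO2 Myc. In the HU experiment it was 125 to 142 CPM in the 4 WT libraries and 43.8 to 52.2 CPM in the 4 KO libraries. Of 12 hepatocyte markers, 0 were listed in the Myc experiment and 1 (Apob, 0 to 5.997 CPM) in the HU experiment, whereas 5 of 10 hepatoblast or liver tumour markers (Afp, Sox9, Krt8, Krt18 and Krt19) summed to 1944 to 4527 CPM and to 2211 to 3163 CPM. Of 6 mesenchymal markers, 6 and 4 were listed, at 2908 to 4245 CPM and 2667 to 3444 CPM in sum, and of blood cell markers only Cd68 was listed, at up to 6.30 CPM. Endothelial markers were not listed in either table.

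Pol I transcribes the repeated ribosomal DNA into a single long precursor, with Ubtf bound along the genes and Rrn3 bringing the polymerase to the promoter. The precursor is methylated by box C/D snoRNPs and pseudouridylated by box H/ACA snoRNPs, folded and cut in the small subunit processome, and carried through pre-ribosomal particles that leave the nucleolus. Myc is known to raise the expression of many of these factors, and it binds the E-box CACGTG.

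The E-box was searched in the promoters of the members, from 250 bases before to 50 bases after the start of transcription, since the comparisons below run over groups that differ in Myc mRNA. RefSeq promoters of build GRCm38.p6 were found for 40 of the 47 genes, and 10 of the 40 (25%) held CACGTG, which reads the same on both strands. The motif was found in 8.093% of all 27025 promoters and in 11.62% of the 9796 promoters of genes in the Myc experiment. The 10 genes are Grwd1, Imp4, Ltv1, Mybbp1a, Nop2, Pes1, Pno1, Rrn3, Utp20 and Wdr43. An E2f motif, TTTCCCGC or TTTGGCGC on either strand, was found in 3 of the 40 (7.5%, Ncl, Nolc1 and Nop58), against 1.798% of all promoters and 3.512% of those in the Myc experiment. The stretches around the E-box are shown for the 5 of the 10 genes whose mean difference between knockout and WT was largest, on the strand of the gene, with the E-box in capitals.
Pno1: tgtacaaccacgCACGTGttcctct
Wdr43: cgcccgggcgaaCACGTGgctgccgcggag
Ltv1: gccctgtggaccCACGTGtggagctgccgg
Mybbp1a: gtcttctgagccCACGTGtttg
Imp4: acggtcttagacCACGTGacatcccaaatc

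They lie at chr11:17211540-17211564 (minus strand, Pno1), chr17:71616220-71616249 (plus strand, Wdr43), chr10:13193092-13193121 (minus strand, Ltv1), chr11:72441355-72441376 (plus strand, Mybbp1a) and chr1:34439696-34439725 (plus strand, Imp4). The E-box begins 37 bases after the start in Pno1, 17 in Wdr43, 28 in Ltv1 and 40 in Mybbp1a, within the first transcribed bases, and 121 bases before the start in Imp4 (position -121). Of these 5 genes, all 5 were lower in the mean of KO1 Ctrl and KO2 Ctrl than in WT Ctrl, which is given as a description. They were picked by the size of this difference in either direction. Of the remaining E-box genes, Pes1 (log2FC -0.17) and Nop2 (-0.07) were below 0. Grwd1 (0.22), Utp20 (0.09) and Rrn3 (0.007) were above 0.

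The members took 0.857% to 1.12% of all counts in the Myc experiment and 0.906% to 1.15% in the HU experiment. Per kb of exon, the levels in WT Ctrl ran from 450.3 CPM per kb for Npm1, the histone chaperone nucleophosmin, and 309 for Ncl, nucleolin, down to 8.87 for Rrp1b and 4.58 for the Pol I subunit Polr1e. The methyltransferase Fbl (116), the snoRNP core proteins Nop58 (149.9) and Nhp2 (110.5) and the helicase Ddx21 (110.3) followed Npm1 and Ncl. Mybbp1a (141 CPM per kb) lay in the same range. The exon length joins all annotated transcripts of a gene, 8257 bases for Ncl and 2665 for Npm1. The order of the genes therefore depends on the annotation. On the mouse genome (NCBIM37, GENCODE M1) the 47 genes lie on 19 chromosomes. Exons of 13 of them overlap exons of a gene on the opposite strand, by 353 bases for Bysl and Ccnd3, by 185 for Polr1a and by 144 for Nop14. The strand used for counting is not given in the sources used here, so reads of such partners cannot be told apart. With the exons of all annotated transcripts joined, Nop56 overlaps snoRNA genes on the same strand, which is a property of the annotation. Reads of Npm1 could be shared with its processed copies.

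With the Ctrl vector, more members were lower than higher in each Trim33 knockout line relative to WT cells. In KO1 Ctrl 27 of the 47 genes were lower and 1 was higher than in WT Ctrl at an adjusted p of 0.01, where 26.7% of all genes were lower and 25.5% higher. In KO2 Ctrl 21 were lower and 3 higher, with 26.6% of all genes lower and 23.3% higher. The members' median log2 fold change (log2FC) was -0.27 in KO1 and -0.20 in KO2, beside medians of -0.004 and -0.011 over all genes. In bulk RNA a change in RNA per cell and a change in the mix of cells cannot be told apart. The WT Ctrl libraries are shared by both comparisons. Over all genes, both KO1 Ctrl libraries lay below both WT Ctrl libraries in 42.18% and above them in 41.76%. For KO2 Ctrl these shares were 42.15% and 39.91%. In the mean of both knockouts against WT, 26 members were lower and 3 higher, where 29.5% of all genes were lower and 26% higher, and the members' log2FC ran from -1.32 to 0.33. The count of higher members in this mean fell to 1 without WT Ctrl replicate 1, without WT Ctrl replicate 2 or without KO1 Ctrl replicate 2.

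**Figure D1:**
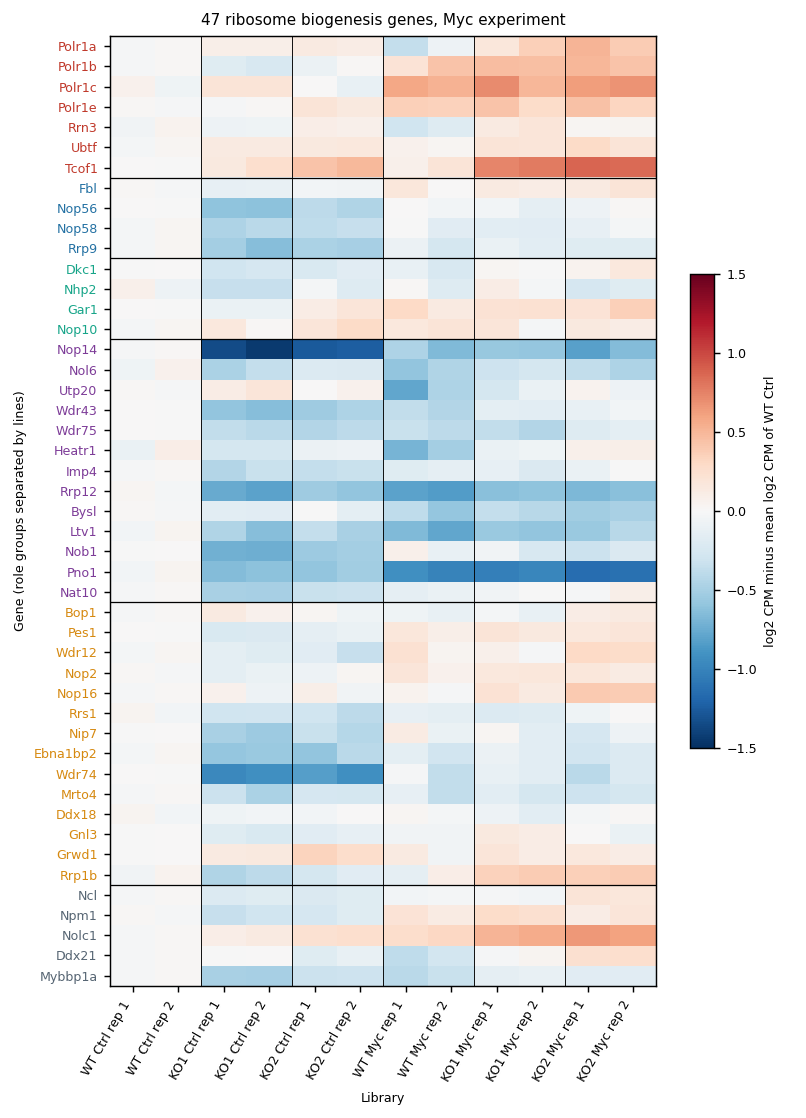
Each row is 1 of the 47 genes, grouped by role with the label colours red for Pol I, blue for box C/D, green for box H/ACA, purple for small subunit, orange for large subunit and grey for nucleolar genes, and each column is 1 library of the Myc experiment. The colour is log2 CPM minus the mean log2 CPM of the 2 WT Ctrl libraries, blue where lower and red where higher. The 4 knockout libraries with the Ctrl vector have member medians of -0.26, -0.25, -0.18 and -0.18, and the 4 knockout libraries with the Myc vector lie between -0.04 and 0.04.

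Myc mRNA differed between the same groups. It was 433 and 439 CPM in WT Ctrl, 186 and 196 CPM in KO1 Ctrl and 210 and 219 CPM in KO2 Ctrl, with no overlap between WT and either knockout. Its log2FC was -1.19 ± 0.056 (SE) in KO1 (adjusted p = 3.3e-11) and -1.02 ± 0.056 in KO2 (adjusted p = 2.5e-10). The part of Myc mRNA in the members' differences was not tested.

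Among the Pol I genes, the cofactor Tcof1 (treacle) was higher in the knockouts and the other 6 did not pass the test in either line. Tcof1 was 118 and 119 CPM in WT Ctrl, 132 and 141 CPM in KO1 Ctrl and 159 and 166 CPM in KO2 Ctrl, so that the 3 groups did not overlap. Its log2FC was 0.20 ± 0.060 in KO1 (adjusted p = 0.0068) and 0.46 ± 0.059 in KO2 (adjusted p = 5.2e-06). The KO1 call was lost with DESeq2 (adjusted p = 0.0155) and without WT Ctrl replicate 1 (0.0339), WT Ctrl replicate 2 (0.0377) or KO1 Ctrl replicate 2 (0.0958). Tcof1 was also the 1 member that was higher in KO2 Ctrl than in KO1 Ctrl, by 0.25 ± 0.059 (adjusted p = 0.0038), where 8.33% of all genes were higher and 9.96% lower. That call was lost without KO1 Ctrl replicate 1 (adjusted p = 0.0736), KO2 Ctrl replicate 1 (0.0133) or KO2 Ctrl replicate 2 (0.0551). The count for this comparison rose to 15 higher and 2 lower with the compared groups alone in the fit and to 5 higher with library totals alone. Over all genes these settings called 1996 higher and 2033 lower, and 1225 higher and 1131 lower.

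The catalytic subunits were near their WT level. Polr1a, the largest subunit, was 97.5 and 100.3 CPM in WT Ctrl, 105 and 105 CPM in KO1 Ctrl and 109 and 107 CPM in KO2 Ctrl, with log2FC 0.09 ± 0.084 (adjusted p = 0.37) and 0.13 ± 0.084 (0.20). Polr1b, the second largest subunit, was 78.9 and 81.3, 70.7 and 67.6, and 75.6 and 80.8 CPM in the same order, with log2FC -0.21 ± 0.074 (adjusted p = 0.020) and -0.03 ± 0.073 (0.70). KO1 lay below WT for Polr1b, and KO2 overlapped WT. Ubtf, which holds ribosomal genes in an active form, was 202 and 210.3 CPM in WT Ctrl, 226 and 226 CPM in KO1 Ctrl and 228 and 229 CPM in KO2 Ctrl, a small difference of 0.13 ± 0.052 (adjusted p = 0.034) and 0.15 ± 0.052 (0.020) in libraries that did not overlap. Rrn3, the initiation factor, was 117 and 127 CPM in WT Ctrl, 116 and 117 CPM in KO1 Ctrl and 131 and 128 CPM in KO2 Ctrl, just below WT in KO1 and just above it in KO2 (log2FC -0.07 ± 0.058 and 0.09 ± 0.058, adjusted p = 0.30 and 0.21).

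Of the 4 box C/D genes 3 were lower in each knockout. Nop56, a core protein of the particle, was 372 and 368 CPM in WT Ctrl, 244 and 242 CPM in KO1 Ctrl and 282 and 271 CPM in KO2 Ctrl. Its log2FC was -0.61 ± 0.055 in KO1 (adjusted p = 8.6e-08) and -0.42 ± 0.055 in KO2 (5.8e-06). Its partner Nop58 and the U3-specific protein Rrp9 also fell, with log2FC of -0.43 and -0.57 in KO1 and -0.37 and -0.49 in KO2. Fbl, the methyltransferase of the same particle, did not pass the test, at 137 and 133 CPM in WT Ctrl, 123 and 124 CPM in KO1 Ctrl and 131 and 129.5 CPM in KO2 Ctrl.

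Of the 4 box H/ACA genes 2 were lower in KO1 and 1 in KO2. Dkc1, the pseudouridine synthase dyskerin, was 194 and 195 CPM in WT Ctrl, 158 and 163 CPM in KO1 Ctrl and 165 and 172 CPM in KO2 Ctrl. Its log2FC was -0.27 ± 0.059 in KO1 (adjusted p = 0.00072) and -0.20 ± 0.059 in KO2 (adjusted p = 0.0072). The KO1 call was lost without KO1 Ctrl replicate 1 (adjusted p = 0.0133), and the KO2 call with DESeq2 (0.0152), library totals alone (0.0912) or a minimum mean of 5 CPM (0.0102) and without any 1 of its 4 libraries (0.0193 to 0.0702). Nhp2 was the other gene that fell in KO1, by 0.35 on the log2 scale, while Gar1 (-0.10 and 0.14) and Nop10 (0.09 and 0.23) did not pass the test.

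Of the 13 small subunit genes 11 were lower in KO1 and 9 in KO2, with medians of -0.49 and -0.41. Nop14, a processome protein, was 255 and 263 CPM in WT Ctrl, 103 and 96.0 CPM in KO1 Ctrl and 109 and 110.1 CPM in KO2 Ctrl, the largest fall among the members. Its log2FC was -1.39 ± 0.071 in KO1 (adjusted p = 7.2e-11) and -1.25 ± 0.070 in KO2 (3.5e-10). Rrp12, an export factor of pre-ribosomes, was 80.3 and 76.6 CPM in WT Ctrl, 46.4 and 45.2 CPM in KO1 Ctrl and 54.2 and 52.2 CPM in KO2 Ctrl. All 4 knockout libraries lay below both WT libraries for each of these genes, as they did for 34.18% of all genes. The log2FC of Rrp12 was -0.78 ± 0.063 (adjusted p = 2.2e-08) and -0.56 ± 0.063 (1.0e-06).

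Wdr43, which links Pol I transcription to processing, was 293 and 291 CPM in WT Ctrl, 194 and 188 CPM in KO1 Ctrl and 203 and 212 CPM in KO2 Ctrl, with log2FC -0.61 ± 0.053 (adjusted p = 4.6e-08) and -0.49 ± 0.053 (6.2e-07). Nob1, the endonuclease that makes the mature end of 18S rRNA, was 101.5 and 102 CPM, 61.6 and 61.1 CPM, and 70.0 and 71.3 CPM in the same groups, with log2FC -0.73 ± 0.076 (4.0e-07) and -0.53 ± 0.075 (1.5e-05). Both genes were lower in every knockout library. Heatr1, a processome subunit needed for Pol I transcription, was 143 and 165 CPM in WT Ctrl, 128 and 128 CPM in KO1 Ctrl and 145 and 146 CPM in KO2 Ctrl, so that KO2 lay within the WT range. Its fall in KO1 (log2FC -0.27 ± 0.070, adjusted p = 0.0033) was lost without WT Ctrl replicate 2 (0.0895), KO1 Ctrl replicate 1 (0.0229) or KO1 Ctrl replicate 2 (0.0236) and with library totals alone (0.0156). Utp20 (0.15 and 0.04) and Bysl (-0.16 and -0.08) did not pass the test in either line.

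Of the 14 large subunit genes 8 were lower in KO1, and 5 were lower and 1 higher in KO2. Wdr74, which acts in remodelling of large subunit precursors, was 78.5 and 77.4 CPM in WT Ctrl, 39.8 and 41.2 CPM in KO1 Ctrl and 44.0 and 41.1 CPM in KO2 Ctrl. Its log2FC was -0.94 ± 0.099 in KO1 (adjusted p = 4.3e-07) and -0.87 ± 0.098 in KO2 (1.1e-06). Among the PeBoW complex, which matures large subunit RNA, Pes1 was 143 and 142 CPM in WT Ctrl, 122 and 123 CPM in KO1 Ctrl and 129.7 and 134 CPM in KO2 Ctrl, and its partner Bop1 was 146 and 149.6 CPM, 162 and 155 CPM, and 151 and 142 CPM. Pes1 lay below WT in both knockouts, by -0.22 ± 0.054 in KO1 (adjusted p = 0.0022) and -0.12 ± 0.054 in KO2 (0.072), and Bop1 lay above WT in KO1 (0.10 ± 0.056, adjusted p = 0.13) and around it in KO2. Wdr12 of the same complex had a log2FC of -0.16 ± 0.077 in KO1 (adjusted p = 0.077) and -0.25 ± 0.077 in KO2 (0.0093). Gnl3 (nucleostemin), a GTPase, was 186 and 187 CPM in WT Ctrl, 165 and 159 CPM in KO1 Ctrl and 166 and 171 CPM in KO2 Ctrl, with log2FC -0.20 ± 0.054 (adjusted p = 0.0041) and -0.15 ± 0.054 (0.027). The KO1 calls of Pes1 and Gnl3 were lost without any 1 of the 4 WT Ctrl and KO1 Ctrl libraries, with adjusted p of 0.0124 to 0.0203 and 0.0153 to 0.0461, and with library totals alone (0.0135 and 0.0251). Grwd1, a ribosome assembly chaperone, was the higher gene in KO2, at 60.4 and 61.3 CPM in WT Ctrl and 76.7 and 73.3 CPM in KO2 Ctrl (log2FC 0.30 ± 0.069, adjusted p = 0.0013). That call was lost without WT Ctrl replicate 1 (adjusted p = 0.0135) or KO2 Ctrl replicate 1 (0.0190).

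Of the 5 abundant nucleolar genes 3 were lower in each knockout. Npm1 was 1214 and 1186 CPM in WT Ctrl, 942 and 976 CPM in KO1 Ctrl and 1011 and 1054 CPM in KO2 Ctrl, and Ncl was 2515 and 2579, 2201 and 2251, and 2184 and 2238 CPM. Neither gene overlapped between WT and knockout, with log2FC of -0.32 ± 0.053 and -0.22 ± 0.052 for Npm1 (adjusted p = 5.1e-05 and 0.0019) and -0.19 ± 0.047 and -0.20 ± 0.047 for Ncl (0.0017 and 0.0012). The Npm1 call in KO2 was lost without WT Ctrl replicate 1 (0.0199) or KO2 Ctrl replicate 1 (0.0332) and with library totals alone (0.0354). The Ncl call was lost without WT Ctrl replicate 2, KO1 Ctrl replicate 1 or KO1 Ctrl replicate 2 in KO1 (0.0112 to 0.0273) and without WT Ctrl replicate 2 (0.0147) or KO2 Ctrl replicate 1 (0.0217) in KO2, and with library totals alone in both lines (0.0154 and 0.033). Nolc1, which carries snoRNPs, was higher in KO2 (207 and 211 CPM in WT Ctrl against 244 and 248 CPM, log2FC 0.24 ± 0.051, adjusted p = 0.00071).

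Lower calls also outnumbered higher calls among other genes of the pathway. Of 138 further genes for Pol I, Pol III, both subunits and the RNA exosome, 136 were measured, of which 71 were lower and 9 higher in KO1 Ctrl and 60 were lower and 9 higher in KO2 Ctrl. These are 52.21% lower and 6.618% higher in KO1, where 26.7% and 25.5% of all genes were. In KO2 they are 44.12% and 6.618%, against 26.6% and 23.3% of all genes. The median log2FC of the 136 genes was -0.30 in KO1 and -0.19 in KO2. By class, 30 of 45 further small subunit genes and 30 of 49 further large subunit genes were lower in the mean of both knockouts. Of the 20 Pol III genes 6 were lower and 5 higher, near the shares of all genes in that mean (29.5% lower and 26% higher).

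With the Myc vector, more members rose than fell in both knockout lines. Myc mRNA rose in the libraries labelled KO1 Myc (621 and 646 CPM) and KO2 Myc (459 and 499 CPM), by 1.73 ± 0.057 and 1.16 ± 0.056 on the log2 scale over the same line with the Ctrl vector (adjusted p = 1.2e-12 and 9.1e-11). It was 456 and 458 CPM in the libraries labelled WT Myc, 0.07 ± 0.055 above WT Ctrl (adjusted p = 0.31). All directions in these comparisons follow the labels, against which Trim33 mRNA went in KO1 Myc and WT Myc.

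In the libraries labelled KO1 Myc 27 members were higher and 2 lower than in KO1 Ctrl, where 17.9% of all genes were higher and 18.2% lower. In those labelled KO2 Myc 26 members were higher and 2 lower than in KO2 Ctrl, with 20.2% and 18.6% of all genes. The medians were 0.26 and 0.25, beside 0.007 and 0.017 over all genes. The 2 lower members in KO1 became 1 without KO1 Ctrl replicate 1, KO1 Ctrl replicate 2 or KO1 Myc replicate 1. In the libraries labelled WT Myc 4 members were higher and 13 lower than in WT Ctrl (21.6% and 22.7% of all genes), with a median of -0.09. Scaling by library totals alone gave 9 higher and 12 lower there, where 3564 of all 13107 genes were higher and 2368 lower.

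**Figure D2:**
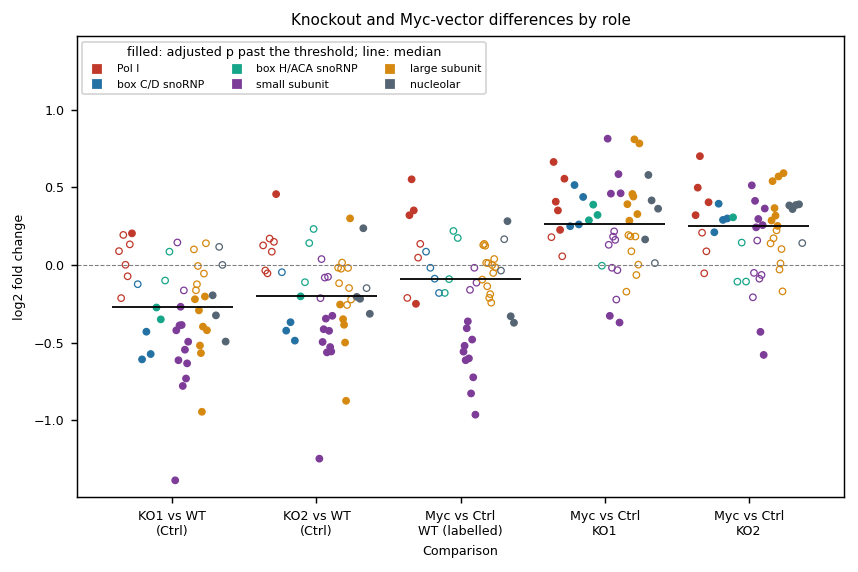
Each point is the log2 fold change of 1 gene, coloured by role, in 5 comparisons of the Myc experiment. Filled points passed the adjusted p of 0.01 and the black line is the median of the 47 genes. The medians are -0.27 and -0.20 for the knockouts, -0.09 for the Myc vector in the libraries labelled WT and 0.26 and 0.25 for the Myc vector in those labelled KO1 and KO2.

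Nop14, Wdr74 and Rrp1b had high values among the members that rose with Myc, in comparisons that share the Ctrl libraries of the same line with the knockout comparisons. Nop14 was 175 and 174 CPM in the libraries labelled KO1 Myc and 147 and 165 CPM in those labelled KO2 Myc, above both Ctrl libraries of the same line and below WT Ctrl. Its log2FC was 0.81 ± 0.071 in KO1 (adjusted p = 1.1e-07) and 0.51 ± 0.070 in KO2 (1.6e-05). Wdr74 reached 72.4 and 69.6 CPM and 58.9 and 67.4 CPM, with log2FC 0.81 ± 0.099 (adjusted p = 4.9e-06) and 0.57 ± 0.098 (0.00016). Rrp1b, a nucleolar phosphatase regulator, rose past its WT Ctrl level of 66.0 and 70.7 CPM, to 87.0 and 89.0 CPM in KO1 and 87.9 and 89.0 CPM in KO2. Its log2FC was 0.78 ± 0.075 (adjusted p = 3.3e-07) and 0.59 ± 0.074 (6.1e-06).

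Nop56 and Wdr43 also rose in both lines. Nop56 was 359 and 336 CPM in the libraries labelled KO1 Myc and 352 and 376 CPM in those labelled KO2 Myc (log2FC 0.52 ± 0.055 and 0.40 ± 0.055, adjusted p = 1.2e-06 and 1.9e-05). Wdr43 was 264 and 262 CPM and 270 and 283 CPM (0.46 ± 0.053 and 0.41 ± 0.053, adjusted p = 2.7e-06 and 7.8e-06). Npm1 was 1447 and 1421 CPM and 1292 and 1360 CPM, above WT Ctrl in all 4 libraries, with log2FC 0.58 ± 0.053 and 0.36 ± 0.052 (1.8e-07 and 3.0e-05).

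Of the 7 Pol I genes 5 rose with Myc in KO1 and 4 in KO2. Polr1c, a subunit shared with Pol III, was 96.9 and 83.9 CPM in the libraries labelled KO1 Myc, 92.1 and 94.6 CPM in those labelled KO2 Myc and 89.3 and 85.4 CPM in those labelled WT Myc. All 6 libraries lay above the Ctrl libraries, which ran from 55.2 to 68.3 CPM. Its log2FC over the same line was 0.41 ± 0.074 in KO1 (adjusted p = 0.00025), 0.70 ± 0.075 in KO2 (1.1e-06) and 0.55 ± 0.075 in WT (1.3e-05).

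Polr1b was 109 to 113 CPM in the 4 knockout libraries with Myc and 92.0 and 108 CPM in those labelled WT Myc, with log2FC of 0.66, 0.50 and 0.32 in KO1, KO2 and WT (adjusted p = 1.5e-06, 2.6e-05 and 0.0013). Polr1e rose by 0.35 in KO1 and by 0.35 in WT (adjusted p = 0.0033 and 0.0029), from 17.71 and 18.02 CPM in WT Ctrl to 22.7 and 23.0 CPM in the libraries labelled WT Myc. In WT the Polr1b call was lost without WT Ctrl replicate 1 (0.0163) or WT Myc replicate 2 (0.0149) and with the compared groups alone in the fit (0.0116). The Polr1e call was lost without WT Ctrl replicate 1 (0.0154) or WT Ctrl replicate 2 (0.0245), with the compared groups alone (0.0211) and with DESeq2 (0.0224). Tcof1 rose to 197 and 204 CPM in KO1 and 217 and 213 CPM in KO2, the highest levels of this gene in the experiment (log2FC 0.56 ± 0.058 and 0.40 ± 0.057, adjusted p = 9.1e-07 and 2.4e-05).

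Pno1, a small subunit gene, went down with the Myc vector in all 3 lines. Its mRNA, for a protein that works beside Nob1 in the last steps of 18S rRNA formation, was 106 and 113 CPM in WT Ctrl, 69.9 to 76.1 CPM in the 4 knockout Ctrl libraries and 49.4 to 57.9 CPM in the 6 libraries with the Myc vector. The Myc libraries thus lay below all Ctrl libraries, with log2FC over the same line of -0.96 ± 0.062 in WT (adjusted p = 4.4e-09), -0.37 ± 0.064 in KO1 (0.00016) and -0.58 ± 0.064 in KO2 (1.7e-06). Besides Pno1, the lower genes in the knockout lines were Utp20 in KO1 (log2FC -0.33 ± 0.084, adjusted p = 0.0041) and Bysl in KO2 (-0.43 ± 0.076, adjusted p = 0.00021). The Utp20 call was lost without KO1 Ctrl replicate 1 (0.0152), KO1 Ctrl replicate 2 (0.0439) or KO1 Myc replicate 1 (0.0859).

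In the libraries labelled WT Myc, 10 of the 13 lower members were small subunit genes. Rrp12 was 44.8 and 43.7 CPM and Ltv1, an export and maturation factor, 22.9 and 21.1 CPM, against 80.3 and 76.6 CPM and 35.0 and 37.4 CPM in WT Ctrl. Neither gene overlapped between the groups, with log2FC -0.83 ± 0.063 (adjusted p = 2.7e-08) and -0.72 ± 0.090 (5.3e-06). Over all genes, 37.25% were lower without overlap. Heatr1 was 95.0 and 108 CPM there, below every other library of the experiment (log2FC -0.60 ± 0.071, adjusted p = 2.9e-06). Rrn3 fell by 0.25 ± 0.059 to 99.1 and 106 CPM (adjusted p = 0.0018), a call that was lost without WT Ctrl replicate 2 (0.0381) or WT Myc replicate 1 (0.01), with the compared groups alone in the fit (0.0307) and with library totals alone (0.026). In these same libraries Trim33 mRNA was 131 and 155 CPM, against 246 and 258 CPM in WT Ctrl.

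The difference between the Myc steps was tested as an interaction. Steps are signed, so a larger step in the knockout can also come from a fall in WT. For KO1 against WT, 28 members had a larger Myc step in the knockout and 0 a smaller one, where 19.2% of all genes were larger and 18.1% smaller. For KO2 against WT the counts were 24 and 0, with 16.6% and 16.2% of all genes. With DESeq2 26 and 23 of these calls were shared. Over all genes DESeq2 called 2256 larger and 1990 smaller for KO1, and 1893 and 1812 for KO2. At an unadjusted p under 0.05 34 and 32 members passed in either direction, a cutoff for which the share of all genes was not computed. The 0 smaller steps for KO2 became 1 without WT Myc replicate 2. Both interactions use the WT libraries in common, and their medians were 0.38 and 0.35.

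Of the 13 small subunit genes 11 passed for KO1 and 10 for KO2. With the Myc vector, 10 of these 13 genes fell in the libraries labelled WT. In KO1 4 of them rose and 2 fell, and in KO2 6 rose and 2 fell. Rrp12 had a step of -0.83 in WT (adjusted p = 2.7e-08) and of 0.16 in KO1 (0.048). Nop14 had the largest value in each interaction, 1.37 ± 0.098 for KO1 and 1.07 ± 0.098 for KO2 (adjusted p = 1.4e-08 and 2.7e-07). For KO1 the next were the large subunit gene Wdr74 with 1.00 ± 0.14 and Rrp12 with 0.99 ± 0.091, and for KO2 Wdr43 with 0.82 ± 0.074 and Heatr1 with 0.76 ± 0.099. The further 136 pathway genes had 62 larger and 1 smaller steps for KO1 and 54 larger and 5 smaller for KO2. These are 45.59% and 0.7353% for KO1, against 19.2% and 18.1% of all genes. For KO2 they are 39.71% and 3.676%, against 16.6% and 16.2%.

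Knockout and WT cells were also compared with the Myc vector in both. In the libraries labelled KO1 Myc 10 members were higher and 0 lower than in those labelled WT Myc, where 12.6% of all genes were higher and 12.5% lower. In those labelled KO2 Myc 16 were higher and 1 lower, with 17.2% and 18% of all genes, and the medians were 0.08 and 0.10. At an unadjusted p under 0.05 16 and 22 members passed in either direction, with DESeq2 the calls numbered 10 and 15, and with the compared groups alone in the fit 4 and 9. Over all genes DESeq2 called 1416 higher and 1295 lower in KO1 Myc, and 1913 and 1969 in KO2 Myc. With the compared groups alone these were 778 and 763, and 1319 and 1456. The 10 higher members became 6 without KO1 Myc replicate 2. Tcof1 was 125 and 135 CPM in the libraries labelled WT Myc, below all 4 knockout libraries (log2FC 0.62 ± 0.058 and 0.73 ± 0.058, adjusted p = 5.2e-07 and 4.1e-08). Polr1a was 77.0 and 93.7 CPM there, 112 and 127 CPM in KO1 Myc and 141 and 129 CPM in KO2 Myc, which did not overlap (0.48 ± 0.083 and 0.66 ± 0.083, adjusted p = 0.00028 and 7.3e-06). Over all genes, 30.94% in KO1 Myc and 35% in KO2 Myc were higher without overlap. Nob1 was the 1 lower gene in KO2 Myc (81.4 and 87.5 CPM against 107 and 93.9 CPM, log2FC -0.25 ± 0.073, adjusted p = 0.0096). That call was lost with DESeq2 (0.0164), with the compared groups alone in the fit (0.0564), with a minimum mean of 5 CPM (0.0144) and without WT Myc replicate 1 (0.0949), KO2 Myc replicate 1 (0.0955) or KO2 Myc replicate 2 (0.0150), and without WT Myc replicate 2 the lower members numbered 4.

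In the HU experiment the members that passed the test were higher in the knockout. Of the 47 genes 4 were higher and 0 lower in KO untreated than in WT untreated cells, where 3.07% of all genes were higher and 2.52% lower, and the members' median log2FC was 0.20. In 28 genes both KO libraries lay above both WT libraries and in 3 both lay below, against 25.17% and 24.97% of all genes. The 2 KO libraries had 40 and 36 members above the WT mean, and the 2 WT untreated libraries themselves had 16 and 31. Over all genes the median log2 difference from that mean was 0.007 in each KO library, and the share of genes above it was not computed. Myc mRNA was 203 and 162 CPM in WT untreated and 181 and 178 CPM in KO untreated cells (log2FC -0.02 ± 0.12, adjusted p = 0.95), within the spread of the WT libraries. At an unadjusted p under 0.05 19 members passed, a cutoff for which the share of all genes was not computed. DESeq2 called 2 members higher and 0 lower, where it called 219 of all genes higher and 177 lower.

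**Figure D3:**
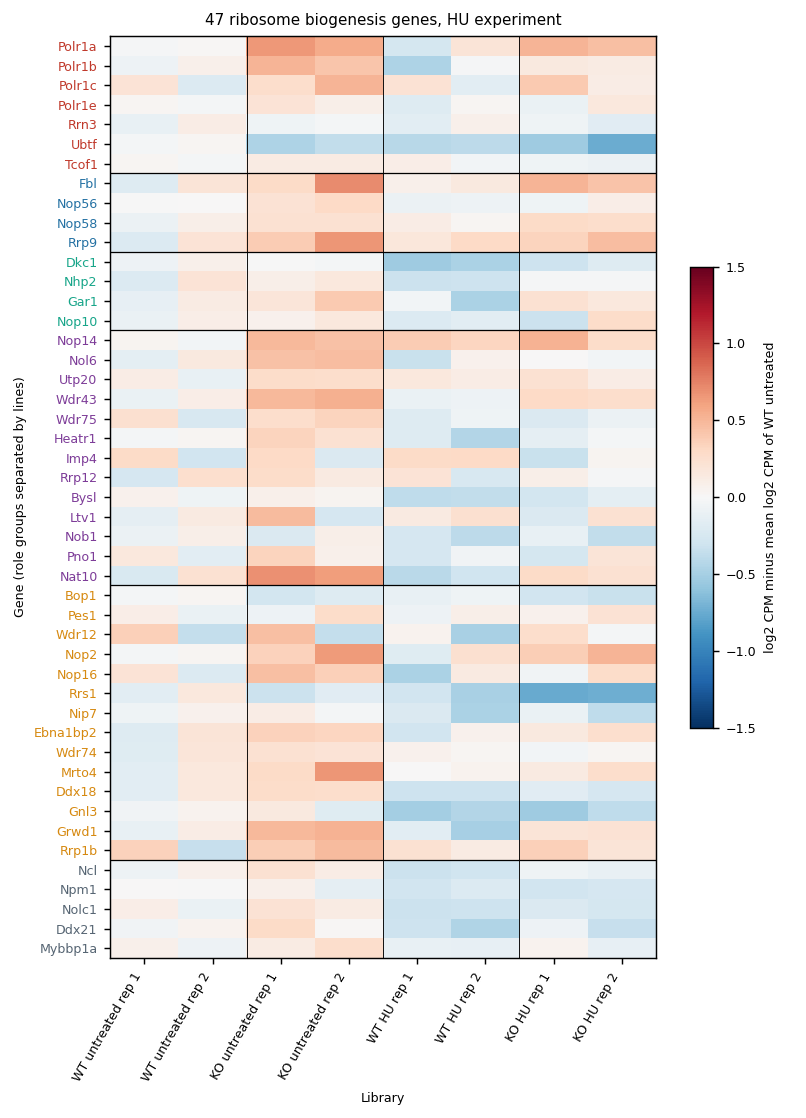
Each row is 1 of the 47 genes in the same order and label colours as for the Myc experiment, and each column is 1 library of the HU experiment. The colour is log2 CPM minus the mean log2 CPM of the 2 WT untreated libraries. The KO untreated libraries have member medians of 0.27 and 0.22, the WT HU libraries -0.20 and -0.08 and the KO HU libraries -0.05 and 0.04.

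The 4 higher genes were Polr1a, Nop2, Fbl and Wdr43. Polr1a was 122 and 124 CPM in WT untreated and 193 and 181 CPM in KO untreated cells (log2FC 0.60 ± 0.13, adjusted p = 0.00096). Nop2, an rRNA methyltransferase, was 132 and 137 CPM against 169.9 and 209.5 CPM (0.50 ± 0.13, adjusted p = 0.0072). Fbl was 126 and 164 CPM against 176 and 235 CPM (0.50 ± 0.13, adjusted p = 0.0065). Wdr43, which was lower in KO1 Ctrl and KO2 Ctrl, was 143 and 165 CPM against 214 and 222 CPM (0.50 ± 0.12, adjusted p = 0.0031). In none of these 4 genes did the groups overlap. The 4 calls became 0 without WT untreated replicate 1, 1 without KO untreated replicate 2, 2 without KO untreated replicate 1, 1 with the compared groups alone in the fit and 2 with DESeq2, and library totals alone gave 2 higher and 1 lower.

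The genes that had fallen most in KO1 Ctrl and KO2 Ctrl were not lower here. Nop14 was 101 and 94.7 CPM in WT untreated and 137 and 132 CPM in KO untreated cells (log2FC 0.46 ± 0.14, adjusted p = 0.019), and Wdr74 was 37.7 and 48.9 CPM against 50.4 and 49.5 CPM (0.20 ± 0.20, adjusted p = 0.59). Nop56 was 361 and 362 CPM against 422 and 444 CPM (0.26 ± 0.10, adjusted p = 0.095). Nob1 was 85.3 and 96.2 CPM against 78.1 and 95.9 CPM (-0.06 ± 0.16, adjusted p = 0.87), with overlapping libraries. Ubtf had the lowest value, at 243 and 252 CPM against 179 and 191 CPM (-0.42 ± 0.12, adjusted p = 0.013). Its KO libraries lay below both WT libraries.

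Of the 26 members lower in the mean of KO1 Ctrl and KO2 Ctrl, 21 had a log2FC above 0 in the HU experiment and 5 below, and their medians were -0.40 and 0.20. The difference between both knockout effects was tested in a joint fit of 11161 shared genes that was added after the data had been seen. In it 21 members were higher in the HU experiment and 1 (Ubtf) lower, where 15.4% of all genes were higher and 15.8% lower, with a member median of 0.38. Nop14 had the largest difference, 1.76 ± 0.13 (adjusted p = 1.6e-11), followed by Wdr74 with 1.09 ± 0.19 (3.4e-05) and Wdr43 with 1.04 ± 0.10 (7.0e-09). The joint fit shares its estimate of spread between experiments. Their separate fits had a biological coefficient of variation of 0.0498 (Myc) and 0.102 (HU). The SE and p-values of the joint fit may therefore be too small for the HU part. The experiments differ in depth, vector and sequencing, and these cannot be told apart from the difference between them.

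**Figure D4:**
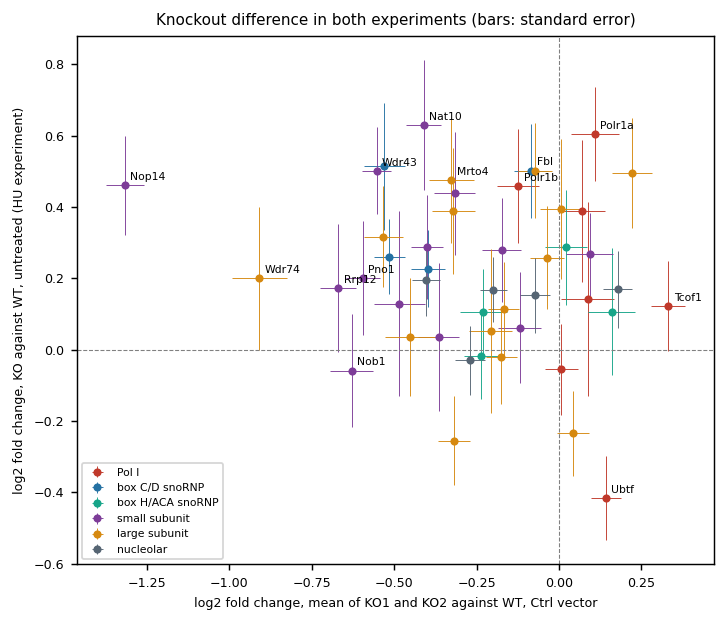
Each point is 1 of the 47 genes, with the log2 fold change of the mean of KO1 and KO2 against WT with the Ctrl vector on the horizontal axis and that of KO against WT untreated cells of the HU experiment on the vertical axis. Bars are standard errors and colours are roles. Most genes lie left of the vertical line and above the horizontal one, and Nop14 is farthest left at -1.32 and 0.46.

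HU lowered a few members in each genotype. In WT cells 6 of the 47 genes were lower and 0 higher with HU than untreated at an adjusted p of 0.05, where 3.44% of all genes were lower and 6.39% higher, and the median was -0.13. In KO cells 6 were lower and 0 higher, with 1.8% and 4.65% of all genes, and the median was -0.22. At an unadjusted p under 0.05 16 and 14 members passed, and DESeq2 called 5 and 3, which included 5 of the 6 in WT and 2 of the 6 in KO cells. Over all genes DESeq2 called 249 lower and 478 higher in WT cells, and 109 lower and 347 higher in KO cells. In KO cells 44 of the 47 genes had a log2FC below 0, where the median over all genes was -0.01. In 31 of the 47 genes both HU libraries lay below both untreated ones, against 22.23% of all genes. Myc mRNA went the other way, rising by 0.98 ± 0.12 in WT (385 and 331 CPM, adjusted p = 1.5e-09) and by 0.53 ± 0.12 in KO cells (267 and 253 CPM, adjusted p = 0.0012).

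**Figure D5:**
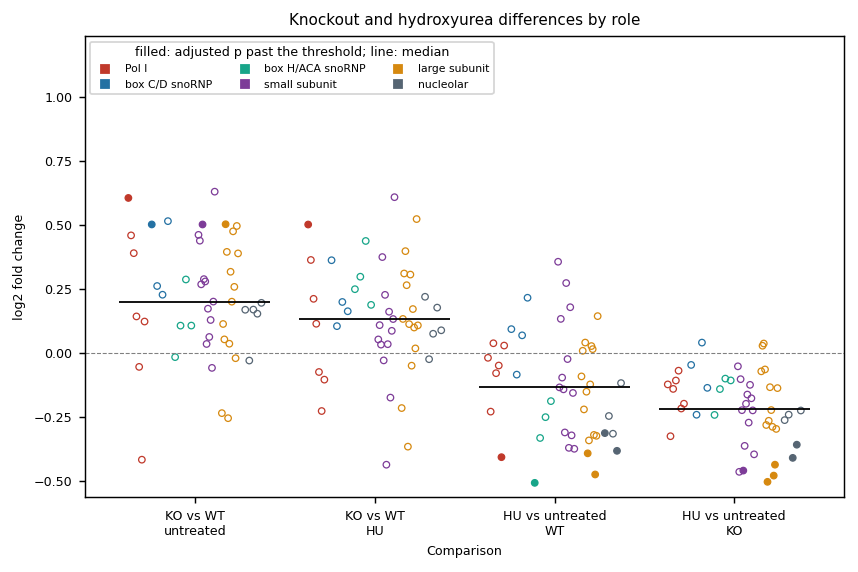
Each point is the log2 fold change of 1 gene, coloured by role, in 4 comparisons of the HU experiment. Filled points passed an adjusted p of 0.01 (KO against WT) or 0.05 (HU against untreated), and the black line is the median of the 47 genes. The medians are 0.20 and 0.13 for the knockout and -0.13 and -0.22 for HU.

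In WT cells the lower genes were Dkc1, Gnl3, Ubtf, Rrs1, Ddx21 and Ncl. Dkc1 was 186 and 208 CPM untreated and 136 and 141 CPM with HU (log2FC -0.51 ± 0.12, adjusted p = 0.0027). Gnl3 was 149 and 161 CPM against 109 and 114 CPM (-0.47 ± 0.13, adjusted p = 0.013). Ubtf was 243 and 252 CPM against 185 and 189 CPM (-0.41 ± 0.12, adjusted p = 0.015). These HU libraries all lay below the untreated ones, as did those of 24.73% of all genes. None of the 6 calls was left without WT HU replicate 1 or without WT untreated replicate 2 (where 1 other member was called), and 1 was left without WT HU replicate 2.

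In KO cells the lower genes were Rrs1, Ddx18, Wdr75, Gnl3, Nolc1 and Ddx21. Rrs1, which brings the 5S particle into the large subunit, was 172 and 191 CPM untreated and 127 and 129.6 CPM with HU (log2FC -0.50 ± 0.13, adjusted p = 0.0066). The helicase Ddx18 was 122 and 121 CPM against 90.1 and 84.6 CPM (-0.48 ± 0.15, adjusted p = 0.031). Wdr75, a processome subunit, was 127 and 133 CPM against 90.5 and 98.8 CPM (-0.46 ± 0.15, adjusted p = 0.042). No HU library reached an untreated one in these genes. The 6 calls became 0 without KO HU replicate 2, 1 without KO HU replicate 1 and 1 without KO untreated replicate 1.

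With HU in both genotypes, 1 member was higher and 0 lower in KO than in WT cells, where 3.27% of all genes were higher and 2.77% lower, and the median was 0.13. At an unadjusted p under 0.05 14 members passed, DESeq2 called 0, and the compared groups alone in the fit gave 7 higher. Over all genes DESeq2 called 243 higher and 159 lower, and the compared groups alone gave 609 and 490. The 1 higher member was Polr1a, at 175 and 168 CPM in KO HU against 103 and 141 CPM in WT HU cells (log2FC 0.50 ± 0.13, adjusted p = 0.0065). Its KO libraries lay above both WT libraries, as did those of 27.47% of all genes. The call was lost with library totals alone (0.0154), with DESeq2 (0.032) and without WT HU replicate 1 (0.376), KO HU replicate 1 (0.0773) or KO HU replicate 2 (0.0387). The interaction of HU with knockout called 0 members in either direction, where 0.0446% and 0.0268% of all genes were called, and 1 member passed an unadjusted p of 0.05 with edgeR and 0 with DESeq2. Of the other 136 pathway genes 7 were lower and 3 higher with HU in WT cells and 8 lower and 0 higher in KO cells. In WT these are 5.147% and 2.206%, against 3.44% lower and 6.39% higher among all genes. In KO cells they are 5.882% and 0%, against 1.8% and 4.65%.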

How the data were processed

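RNA-seq was analysed in 12 libraries (6 groups) of the Myc experiment and 8 libraries (4 groups) of the HU experiment, grouped by the sample labels. The authors mapped reads to mm9 with STAR 2.5.4 and deposited whole-number counts per gene. The table of the Myc experiment is called normalized but held unequal totals, and the counting tool and annotation are not given in the sources used here. Among counts from 1 to 50, 71.92% were even in the HU and 48.38% in the Myc experiment. The authors also deposited edgeR 3.26.8 results (fold changes and p-values), which were not used.

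Each experiment was fitted with edgeR 4.0.16 (R 4.3.3, limma 3.58.1): TMM scaling, filterByExpr (0 genes removed), 1 coefficient per group, quasi-likelihood test, Benjamini-Hochberg adjustment over all genes, and a threshold of 0.01, or 0.05 for HU against untreated and the HU interaction. CPM are counts divided by TMM-scaled totals, so they are shares and do not show total RNA. SE were taken from the log2FC and F. Members and lists were chosen with earlier results of these data known. Values per library are given for fixed examples of each role and for the 3 highest and 3 lowest called members, without overlap, of each comparison. DESeq2 1.42.0 and other settings were alternatives. Member counts at an unadjusted p under 0.05 stand without a share of all genes at that cutoff, which was not computed. The procedure was tested on simulated data. Lower depth limits precision. The biological coefficient of variation was 0.0498 in the Myc and 0.102 in the HU experiment, a difference whose cause was not tested. With 2 libraries per group an exact permutation test cannot go below 0.333 and was not used. Same-numbered replicates deviated with correlations of -0.215 to 0.280 in the Myc and -0.0135 to 0.0447 in the HU experiment. With 2 libraries per group these values cannot show whether the numbers pair samples, and the main fit used no pairing.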

Additional observations from a re-analysis of the deposited data

Results flagged for a closer look

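The values below stand apart because a knockout or Myc effect differed between groups in a test of the difference itself. For the Myc step in KO1 against WT 28 members differed, with a log2 difference of 0.48 in Rrn3, 0.42 in Tcof1, 0.53 in Nop56, 0.47 in Dkc1, 0.78 in Heatr1, 0.87 in Wdr43, 0.60 in Nob1, 0.26 in Pes1, 0.38 in Gnl3, 0.41 in Npm1, 1.37 in Nop14, 1.00 in Wdr74 and 0.99 in Rrp12, beside 1.39 in Trim33 and 1.66 in Myc. For KO2 against WT 24 members differed, by 0.53 in Polr1a, 0.41 in Nop56, 0.49 in Dkc1, 0.76 in Heatr1, 0.82 in Wdr43, 0.42 in Ncl and 1.07 in Nop14, beside 1.09 in Myc. The KO1 value of Pes1 lost its call with DESeq2 (adjusted p = 0.0181) and without any 1 of 7 of its 8 libraries (0.0157 to 0.0344), and the KO2 value of Polr1a without WT Ctrl replicate 2 (0.0102). These directions rest on the libraries labelled WT Myc and KO1 Myc, between which Trim33 mRNA went against the labels, and on those labelled KO2 Myc, where it was below that in the libraries labelled WT Myc.

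For the knockout effect of the HU experiment minus that of the Myc experiment, 21 members were higher and 1 lower. These calls rest on the joint fit, which shares its estimate of spread between the 2 experiments. The log2 difference was 0.56 in Polr1b, -0.57 in Ubtf, 0.57 in Fbl, 0.76 in Nop56, 0.44 in Heatr1, 1.04 in Wdr43, 0.56 in Nob1, 0.35 in Ncl, 1.76 in Nop14 and 1.09 in Wdr74.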

How the results depend on the processing

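Of 416 recomputed counts of members, 356 stayed within 1.5 times the reported count. With the compared groups alone in the fit, the higher members were 4 for KO1 Ctrl and 5 for KO2 Ctrl against WT Ctrl, 15 for KO2 Ctrl against KO1 Ctrl (2 lower), 2 for WT Myc against WT Ctrl, 4 for KO1 Myc and 9 for KO2 Myc against WT Myc (0 lower), 1 for KO against WT untreated and 7 for KO HU against WT HU. Over all genes this setting called, in the same order, 3794, 3630, 1996 (2033 lower), 2143, 778, 1319 (1456 lower), 261 and 609 higher. The lower members were 4 for KO1 Myc against KO1 Ctrl, where 2853 of all genes were lower. With library totals alone, the higher members were 4 for KO1 Ctrl, 5 for KO2 Ctrl and 5 for their mean, 5 for KO2 Ctrl against KO1 Ctrl, 9 for WT Myc against WT Ctrl, 2 for KO against WT untreated (1 lower) and 0 for KO HU against WT HU. Over all genes the higher calls then numbered 3741, 3697, 3975, 1225 and 3564 of 13107, and 283 (370 lower) and 271 of 11210. DESeq2 gave 0 higher for KO1 Ctrl, 2 for KO2 Ctrl against KO1 Ctrl, 2 for KO against WT untreated, 0 for KO HU against WT HU, 0 lower for KO2 Myc against WT Myc and 3 lower for KO HU against KO untreated. Over all genes it called 2947, 965, 219 and 243 higher and 1969 and 109 lower, in the same order. RLE size factors gave 2 higher for KO2 Ctrl against KO1 Ctrl (1122 of all genes). A minimum mean of 5 CPM gave 0 lower for KO2 Myc against WT Myc (1820 of all genes), and halved counts 1 lower for KO against WT untreated (300 of all genes).

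With a replicate block, for which it is not known whether the numbers pair samples, 1 member was lower in KO against WT untreated cells (361 of all genes). No other count of members moved by over 1.5 times with this block. Leaving out 1 library at a time gave higher members of 0 to 1 (KO1 Ctrl), 1 to 3 (mean of both knockouts), 0 to 1 (KO2 Ctrl against KO1 Ctrl), 2 to 5 (WT Myc against WT Ctrl), 6 to 12 (KO1 Myc against WT Myc), 0 to 4 (KO against WT untreated) and 0 to 1 (KO HU against WT HU). It gave lower members of 1 to 2 (KO1 Myc against KO1 Ctrl), 0 to 4 (KO2 Myc against WT Myc), 0 to 1 (interaction of Myc with KO2), 0 to 7 (WT HU against WT untreated) and 0 to 5 (KO HU against KO untreated). The cause was not tested. The 27 and 21 lower members of KO1 Ctrl and KO2 Ctrl stayed within 1.5 times under every alternative run.

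Some values of genes with no call changed sign when 1 library was left out. Myc in KO against WT untreated cells ran from -0.184 to 0.149 (0.149 without WT untreated replicate 1). Trim33 ran from -0.009 to 0.233 in the interaction of Myc with KO2 (-0.009 without WT Myc replicate 1), from -0.003 to 0.159 in WT HU against WT untreated cells (-0.003 without WT untreated replicate 2) and from -0.066 to 0.166 in the interaction of HU with KO (-0.03 without WT untreated replicate 1, -0.066 without KO untreated replicate 2).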

Other observations

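Nop10, a core protein of the box H/ACA snoRNP, was the 1 member that passed the test in none of the 16 comparisons.

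The WT cells of both experiments stood at different levels in some genes, in tables that were normalized separately and differ in depth and vector, so that no test was made. Nop14 was 255 and 263 CPM in WT Ctrl, 103 and 96.0 CPM in KO1 Ctrl, and 101 and 94.7 CPM in WT untreated cells of the HU experiment. Wdr74 was 78.5 and 77.4, 39.8 and 41.2, and 37.7 and 48.9 CPM in the same groups. Myc mRNA was 433 and 439, 186 and 196, and 203 and 162 CPM. Nop56 was 372 and 368, 244 and 242, and 361 and 362 CPM.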
